A study of Rattus norvegicus with 4 samples.

Results

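The genes described here are 10 members of the pathway by which cells sense oxygen through hypoxia-inducible factor (HIF). They were chosen by name, as 3 subunits of the transcription factor (Hif1a, Epas1 and Arnt), 4 genes that sense oxygen or mark HIF for degradation (Egln1, Egln2, Egln3 and Vhl) and 3 target genes (Ndrg1, Ankrd37 and Ddit4). All 10 were found among the 23360 gene symbols of the data, and all 10 passed the filter of a mean of at least 1 TPM (transcript abundances corrected for transcript length, which sum to 1000000 in a sample), which left 11960 genes for testing. The cells were INS-1 832/3, a clonal rat insulinoma line that secretes insulin, carries a human insulin gene and is kept under Geneticin selection. The 2D group consisted of 2 standard monolayer cultures. The 3D group consisted of 2 cultures bioprinted into GelXA LAMININK 411, a gelatin methacrylate hydrogel with laminin-411 that is crosslinked with light. Both groups were grown in the same supplemented RPMI-1640 medium and harvested after 5 days at passage 3. The labels call the replicates biological, but all 4 cultures come from 1 line, so the spread between them is that of cultures of this line and not of animals or islets. The study set out to build insulin-secreting tissue by bioprinting and compared the transcripts of bioprinted and monolayer cells. The comparison below is of the transcripts of the HIF pathway. Oxygen and HIF protein in these cultures were not analysed here.

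HIF is a dimer of an oxygen-regulated alpha subunit, HIF-1 alpha or HIF-2 alpha, and the beta subunit ARNT. When oxygen is plentiful, prolyl hydroxylases of the EGLN family modify the alpha subunit, the VHL protein binds the modified form, and the alpha subunit is destroyed, so that its level is set largely at the protein and not at the transcript. When oxygen falls the alpha subunit accumulates, pairs with ARNT and switches on genes for glycolysis, vessel growth and adaptation, among them Egln3 and, to a lesser degree, Egln1, which thereby limit the response. Beta cells rely on oxidative metabolism for glucose-stimulated secretion, and loss of VHL is known to impair it.

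The 8 beta-cell markers summed to between 145559 and 166721 TPM in monolayer and between 156182 and 166199 TPM in 3D culture, most of it Ins1. Of the 8, Ins2 fell (log2 fold change -0.58, adjusted p of 0.0095), Slc2a2, the gene of the glucose transporter GLUT2, rose (0.39, adjusted p of 0.0075) and 6 were not called. The markers of other cell types were low, with Cdh5, Dcn and Ptprc listed at 0 in all 4 cultures. Kdr, an endothelial marker, had 0.955 and 1.04 TPM in monolayer culture, against 1.26 and 1.45 TPM in 3D. Pdgfra, a fibroblast marker, had 1.88 and 1.95 TPM in monolayer culture, against 2.30 and 2.19 TPM in 3D. Both passed the filter, and neither was called. The sums of monolayer and 3D cultures ran from 1.07 to 1.19 and from 1.39 to 1.65 TPM for endothelial markers (4 of 5 found), from 1.89 to 1.97 and from 2.21 to 2.33 TPM for fibroblast markers (4 of 5 found) and from 0.600 to 0.834 and from 0.875 to 1.49 TPM for leukocyte markers (4 of 4 found). The 13 mitochondrially encoded genes held 10.1% and 9.35% of TPM in the monolayer cultures, and 13.0% and 12.3% in those in hydrogel, and the part of this difference in the results below was not tested. Scaling factors between samples ran from 0.960 to 1.02.

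Of the 10 members, 3 changed between 3D and monolayer culture at limma's adjusted p threshold of 0.05. Epas1 and Arnt, which encode the partners of a HIF-2 dimer, rose, and Ndrg1 fell. Hif1a, the 3 Egln genes, Vhl, Ankrd37 and Ddit4 did not pass the threshold. This share of members lay below the 38.0% called among all genes tested, of which 18.5% were higher and 19.5% lower in 3D culture. In 6 of the 10 members the 2 groups did not overlap, as against 75.5% of all genes tested. The median log2 fold change was -0.021 over the members and -0.0031 over all genes. Exact permutation of 2 and 2 cultures reaches a two-sided p of 0.33 at the lowest, and the calls therefore draw on a variance that limma pools over genes. With either 3D culture left out, limma called fewer members and fewer genes in all. In such a fit the spread comes from the monolayer pair alone. The log2 fold changes without 3D replicate 1 were 0.52 for Epas1, 0.39 for Arnt and -0.42 for Ndrg1, against 0.55, 0.40 and -0.47 with all cultures. The standard error for Epas1 was 0.098 without 3D replicate 1 and 0.096 without 3D replicate 2, against 0.064 with all cultures.

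**Figure D1:**
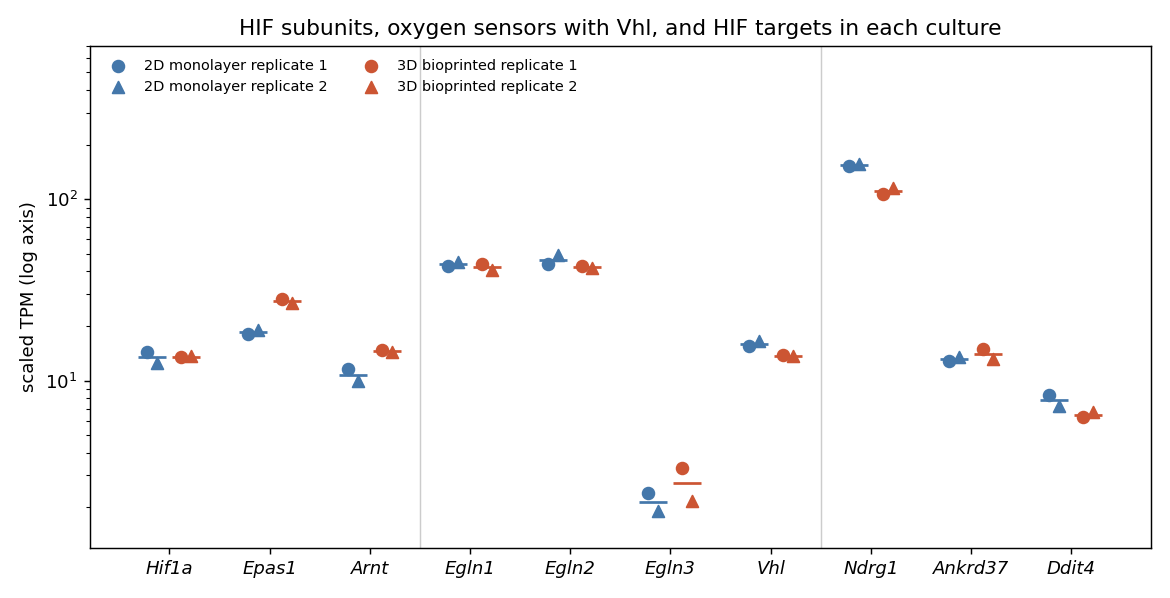
Scaled TPM of the 10 members in each culture, on a log axis, with circles for replicate 1, triangles for replicate 2, blue for 2D monolayer, orange for 3D bioprinted and short lines for the group means. The 3D cultures sit above the monolayer cultures for Epas1 and Arnt and below them for Ndrg1, while the points of Hif1a and Egln1 lie among each other.

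Epas1, which encodes HIF-2 alpha, showed the largest change of the 10. Its level was 18.0 and 19.0 TPM in the monolayer cultures and 28.1 and 26.9 TPM in the 3D cultures. Both 3D cultures thus stood clear of both monolayer cultures. The 3D mean of 27.5 ± 0.844 TPM (SD, n = 2) was 1.49 times the monolayer mean of 18.5 ± 0.675 TPM (SD, n = 2). The log2 fold change was 0.55 with a standard error of 0.064 and an adjusted p of 0.0053. The call held in all 10 other settings with all cultures, with log2 fold changes from 0.51 to 0.59, and without 3D replicate 1 the adjusted p was 0.0672. The whole value came from 1 of the 3 Epas1 transcripts of the files, ENSRNOT00000090420.1, as the other two were listed at 0 in every culture. As these are bulk samples, a rise in every cell and a larger rise in some of the cells cannot be told apart, nor can fewer expressing cells and less RNA per cell where a gene fell.

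Hif1a, which encodes HIF-1 alpha, had 14.4 and 12.5 TPM in monolayer culture, against 13.5 and 13.6 TPM in 3D. Both 3D values lay between the monolayer values. The 95% interval of the log2 fold change ran from -0.20 to 0.23, so the data leave room for a change of that size in either direction. The sign of the estimate, 0.015, turned without the expression filter (-0.020) and with monolayer replicate 2 left out (-0.081). Of its 2 transcripts, ENSRNOT00000049725.3 held the whole value.

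The alpha subunits were also set against each other. Within a sample, where scaling plays no part, the ratio of Epas1 to Hif1a TPM was 1.26 and 1.52 in monolayer and 2.08 and 1.98 in 3D culture. The Epas1 transcript was the more abundant in every culture, and the 3D ratios lay above both monolayer ratios. The mean ratio was 1.39 ± 0.186 (SD, n = 2) against 2.03 ± 0.0720 (SD, n = 2), with an exact two-sided permutation p = 0.333, the smallest that this design can give.

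Arnt, the gene of the shared beta subunit, had 11.5 and 10.0 TPM in monolayer culture, against 14.7 and 14.4 TPM in 3D. The groups did not overlap, and the log2 fold change was 0.40 with a standard error of 0.086 and an adjusted p of 0.0190. Without the expression filter the adjusted p was 0.0557, with 3D replicate 1 left out it was 0.132 and with 3D replicate 2 left out 0.100. The 2 transcripts with appreciable signal took near-equal parts. ENSRNOT00000044738.4 had 5.32 and 4.16 TPM in monolayer culture, against 7.39 and 7.26 TPM in 3D. For ENSRNOT00000064442.3 the values were 6.15 and 5.85 TPM against 7.32 and 7.09 TPM. Both transcripts were thus higher in 3D culture without overlap between the groups, and were not tested separately. Arnt2, which encodes a second beta subunit best known from neurons, was present at a lower level and rose as well, from 6.56 and 6.32 TPM to 8.60 and 8.54 TPM (log2 fold change 0.36, adjusted p of 0.0171). Its adjusted p was 0.123 without 3D replicate 1 and 0.103 without 3D replicate 2. Hif3a, the gene of the third alpha subunit, lay below the filter with at most 0.0234 TPM.

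**Figure D2:**
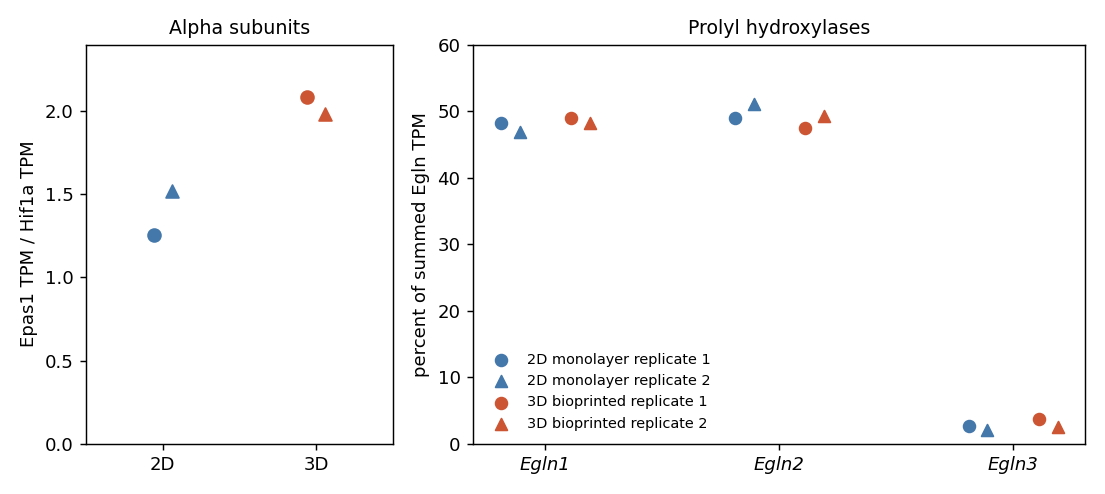
Left, the ratio of Epas1 to Hif1a TPM in each culture, and right, the percentage of the summed Egln TPM held by each Egln gene, with circles for replicate 1, triangles for replicate 2, blue for 2D and orange for 3D. The 3D ratios of 2.08 and 1.98 stand above the monolayer ratios of 1.26 and 1.52, while Egln1 and Egln2 each hold near 50% and Egln3 at most 3.67% in every culture.

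HIF binds DNA at the hypoxia response element, whose core is ACGTG or GCGTG. The core was searched on both strands of the RefSeq promoter windows (GRCr8), which run from 250 bases before to 50 bases after the gene start. A window for 9 of the 10 members was matched by symbol, all but that of Ndrg1. At least 1 core was found in 5 of the 9 and in 41.6% of all 33469 windows of that length. The windows of the subunit genes that rose are shown because they differ in this respect. That of Epas1 (chr6:13624680-13624979, - strand) held no core, and that of Arnt (chr2:185686453-185686752, + strand) held 1, beginning 42 bases before the start. Both are written 5′ to 3′ on the strand of the gene, with the core in capitals.
Epas1: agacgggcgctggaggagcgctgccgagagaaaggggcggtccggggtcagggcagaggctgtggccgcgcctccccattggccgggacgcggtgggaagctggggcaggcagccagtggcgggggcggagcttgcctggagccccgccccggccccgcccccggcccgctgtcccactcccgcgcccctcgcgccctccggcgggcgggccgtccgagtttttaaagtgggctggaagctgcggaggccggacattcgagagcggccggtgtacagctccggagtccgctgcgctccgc
Arnt: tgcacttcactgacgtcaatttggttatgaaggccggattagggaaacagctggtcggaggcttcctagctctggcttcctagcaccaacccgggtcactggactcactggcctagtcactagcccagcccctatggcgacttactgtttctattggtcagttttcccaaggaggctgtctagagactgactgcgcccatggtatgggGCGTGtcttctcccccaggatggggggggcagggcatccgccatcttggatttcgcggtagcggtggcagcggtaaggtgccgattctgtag

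None of the 4 genes of oxygen sensing and HIF degradation passed the threshold in limma, against 38.0% of all genes tested. Of the 4, 1, Vhl, had an unadjusted p below 0.05 in limma, as had 6057 of all 11960 genes tested. Egln1, which encodes PHD2, the main HIF prolyl hydroxylase in most cells, had 43.1 and 45.2 TPM in monolayer culture, against 44.1 and 40.8 TPM in 3D. The groups overlapped, and the 95% interval of the log2 fold change was -0.22 to 0.11. Egln2, which encodes PHD1, had 43.8 and 49.3 TPM in monolayer culture, against 42.7 and 41.7 TPM in 3D. The 3D values lay below, by a log2 fold change of -0.13 (95% interval -0.32 to 0.050, adjusted p of 0.195). With monolayer replicate 1 left out its adjusted p was 0.0456. Egln3, which encodes PHD3 and is the family member most strongly induced by HIF in many cell types, was the least abundant of the 10 genes. It had 2.39 and 1.91 TPM in monolayer culture, against 3.31 and 2.16 TPM in 3D. One 3D culture lay between the monolayer values, and the interval was wide (log2 fold change 0.23, 95% interval -0.22 to 0.69, adjusted p of 0.342). At this level the added pseudocount of 1 lowers the fold change, which was 0.31 on the log2 scale with a pseudocount of 0.1.

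The make-up of the hydroxylase pool was compared as shares, which do not depend on scaling. Egln1 held 48.3% and 46.9% of the summed Egln TPM in monolayer and, in 3D culture, 48.9% and 48.2%. Egln2 held 49.0% and 51.1% in monolayer and, in 3D culture, 47.4% and 49.2%. For Egln3 the shares were 2.68% and 1.98% against 3.67% and 2.55%. For each gene the groups overlapped, with an exact two-sided permutation p = 0.667.

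Vhl, whose product recognises hydroxylated HIF alpha, came nearest to the threshold among the members that were not called. It had 15.4 and 16.5 TPM in monolayer culture, against 13.8 and 13.6 TPM in 3D, so that both 3D cultures lay below. The log2 fold change was -0.21 (95% interval -0.38 to -0.035, unadjusted p = 0.0261, adjusted p of 0.0618), and the adjusted p stayed above 0.05 in all 10 other settings, the lowest being 0.0588.

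The other genes of HIF turnover and of HIF activity were a list of 12, all tested, of which 4 rose and 3 fell, or 58.3% called against 38.0% of all genes (18.5% higher and 19.5% lower). That share depends on how the list is drawn, as it leaves out Egln1, Egln2, Egln3 and Vhl. With these included, 4 of 13 hydroxylase and turnover genes were called, or 30.8%, and of the coactivators and competitor 3 of 3. Among the 12, 3 partners of VHL in its ubiquitin ligase fell. Elob, the gene of elongin B, went from 664 and 735 TPM to 510 and 500 TPM (log2 fold change -0.47, adjusted p of 0.0082). Eloc, the gene of elongin C, showed a log2 fold change of -0.38 (adjusted p = 0.0115), and Rbx1, the gene of the RING subunit, of -0.40 (adjusted p = 0.0292). These proteins also serve other ligases. Cul2, the gene of the scaffold of this ligase, had 27.7 and 26.7 TPM in monolayer culture, against 25.9 and 27.7 TPM in 3D, with overlapping groups. Of the 4 genes that rose, 2 encode coactivators of HIF and 1 a competitor for them. Ep300, the gene of the coactivator p300, went from 5.08 and 3.76 TPM to 8.27 and 9.52 TPM (log2 fold change 0.88, adjusted p of 0.0098). Crebbp, the gene of the related coactivator CBP, showed a log2 fold change of 0.26 (adjusted p = 0.0412). For Cited2, whose product competes with HIF for both coactivators, the log2 fold change was 0.33 (adjusted p = 0.0250). Without the expression filter the adjusted p was 0.0980 for Crebbp and 0.0621 for Cited2. Crebbp lost the call with any culture left out (log2 fold changes from 0.25 to 0.28). Cited2 lost it without either 3D culture and without monolayer replicate 1 (from 0.27 to 0.39 over all such fits). The other one was Os9, whose product is best known from the degradation of proteins of the endoplasmic reticulum, with an adjusted p of 0.0497 that passed in 5 of 10 other settings and in none of the 4 fits that left out a culture. Hif1an, the gene of the asparaginyl hydroxylase FIH that blocks coactivator binding, had 25.4 and 21.9 TPM in monolayer culture, against 27.9 and 30.9 TPM in 3D. Its adjusted p was 0.0522 in limma and lay below 0.05 in 4 of 10 other settings and, at 0.0314, without monolayer replicate 1. P4htm, Siah1 and Siah2 were not called, with log2 fold changes of 0.19, 0.17 and -0.089. Without the expression filter 3 of the 12 were called, against 3739 of all 16749 genes. At an adjusted p below 0.01 2 of the 12 were called, against 1418 of all 11960 genes. Fewer of the 12 were called with either 3D culture left out, as were fewer of all genes. Without 3D replicate 1 the log2 fold changes were 0.97 for Ep300, -0.48 for Elob, -0.42 for Eloc and -0.40 for Rbx1.

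**Figure D3:**
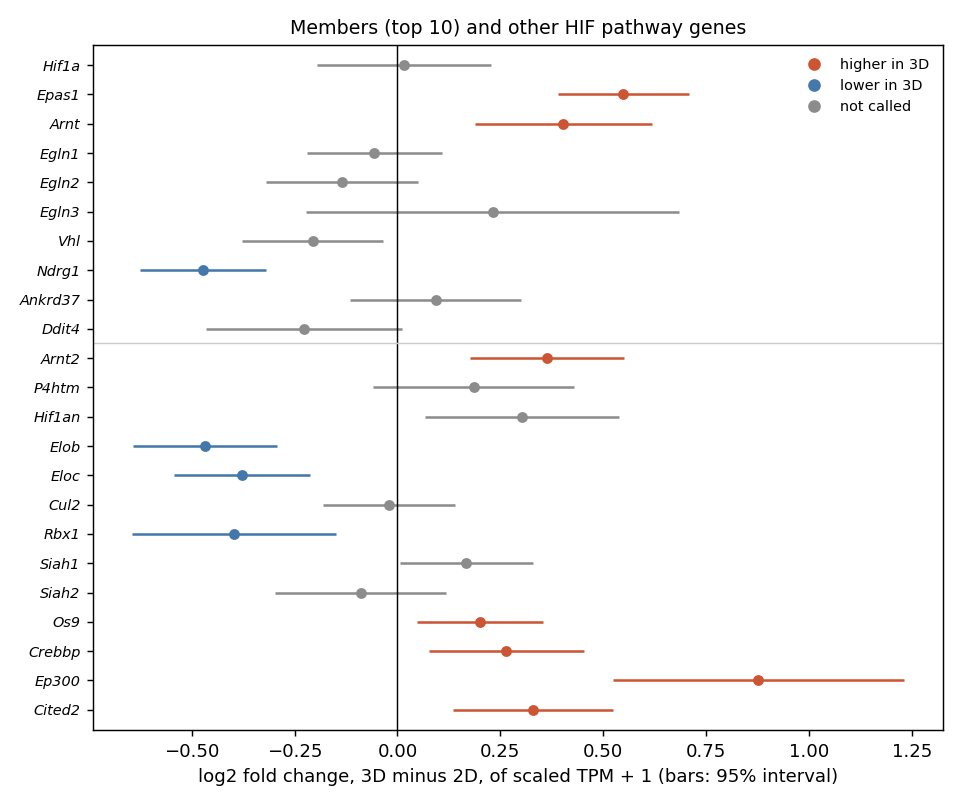
Log2 fold change between 3D and monolayer culture, on log2(scaled TPM + 1), of the 10 members (above the grey line), Arnt2 and the 12 other genes of HIF turnover and activity, with bars for the 95% interval of the limma fit and colour for the call. Epas1 (0.55) and Arnt (0.40) stand to the right of 0 and Ndrg1 (-0.47) to the left, with Elob, Eloc and Rbx1 to the left and Ep300 (0.88) farthest to the right.

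Among the 3 target genes, Ndrg1 fell. It encodes a stress-responsive protein whose transcript is induced by low oxygen in many cell lines, and it was the most abundant of the 10 members, at a level above that of 92.4% of the genes tested. It had 152 and 157 TPM in monolayer culture, against 107 and 115 TPM in 3D. Every 3D value was below every monolayer value. The 3D mean of 111 ± 5.91 TPM (SD, n = 2) was 0.719 times the monolayer mean of 155 ± 3.60 TPM (SD, n = 2). On the log2 scale the change was -0.47, its standard error 0.061 and the adjusted p 0.0062. The call held in all 10 other settings with all cultures, with log2 fold changes from -0.51 to -0.43, and without 3D replicate 1 the adjusted p was 0.0703. Of the 4 Ndrg1 transcripts, ENSRNOT00000010811.7 carried 152 and 156 TPM in monolayer culture, against 107 and 111 TPM in 3D. A second, ENSRNOT00000093322.1, was listed at 0 in both replicates numbered 1 and at 1.42 TPM in monolayer replicate 2 and 4.14 TPM in 3D replicate 2. Of its paralogues, Ndrg3 fell too, from 46.2 and 41.9 TPM to 31.6 and 32.2 TPM (log2 fold change -0.45, adjusted p of 0.0085), with an adjusted p of 0.0831 without 3D replicate 1 and 0.0623 without 3D replicate 2. Ndrg4 had 98.6 and 90.0 TPM in monolayer culture, against 107 and 96.8 TPM in 3D, and Ndrg2 stayed below 3 TPM in all 4 cultures. Neither of these was called.

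Ankrd37, which encodes a small ankyrin-repeat protein and is a direct HIF-1 target, had 12.8 and 13.5 TPM in monolayer culture, against 14.9 and 13.2 TPM in 3D. The groups overlapped, with a log2 fold change of 0.093 (95% interval -0.11 to 0.30, adjusted p of 0.404). Ddit4, which encodes REDD1, an inhibitor of mTORC1 that is induced by hypoxia and other stresses, had 8.32 and 7.23 TPM in monolayer culture, against 6.26 and 6.70 TPM in 3D. Both 3D values lay below, by a log2 fold change of -0.23 (95% interval -0.46 to 0.011, adjusted p of 0.11). The 3 targets thus lay on both sides of 0.

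The promoter windows of Ankrd37 and Ddit4 are shown because both held the core of the hypoxia response element although neither transcript was called higher. That of Ankrd37 (chr16:53001257-53001556, + strand) held 5 matches, and 1.52% of all windows held at least that many. They fall at 4 places that begin 236, 147, 23 and 4 bases before the start, since at the third the palindrome CACGTG matches on both strands. That of Ddit4 (chr20:28436988-28437287, - strand) held 2, beginning 138 and 66 bases before the start, and 19.2% of all windows held at least 2. The windows of Hif1a and Egln1 held 3 and 2 matches, and those of Egln2, Egln3 and Vhl none. Capitals mark the cores. A match is a string of letters and was not tested for binding.
Ankrd37: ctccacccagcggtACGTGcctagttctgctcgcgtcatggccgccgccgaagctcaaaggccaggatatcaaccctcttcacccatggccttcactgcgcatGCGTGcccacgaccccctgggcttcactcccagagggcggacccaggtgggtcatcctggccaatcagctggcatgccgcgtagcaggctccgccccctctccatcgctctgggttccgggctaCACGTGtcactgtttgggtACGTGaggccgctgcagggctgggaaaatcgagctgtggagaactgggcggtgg
Ddit4: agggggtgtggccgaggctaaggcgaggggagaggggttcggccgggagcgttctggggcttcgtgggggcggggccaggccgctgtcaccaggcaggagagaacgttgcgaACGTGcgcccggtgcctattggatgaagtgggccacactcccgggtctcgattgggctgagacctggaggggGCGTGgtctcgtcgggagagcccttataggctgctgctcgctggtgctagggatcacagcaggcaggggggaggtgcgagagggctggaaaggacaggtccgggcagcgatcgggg

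In order of level, Ndrg1 led in both groups, followed by Egln1 and Egln2, whose ranges overlapped each other in both. Epas1 took the fourth place in both groups and stood clear of its neighbours. In monolayer Vhl, Hif1a, Ankrd37 and Arnt followed, with the ranges of Hif1a and Ankrd37 overlapping. In 3D culture Arnt moved to the fifth place at 14.5 TPM, ahead of Ankrd37, Vhl and Hif1a, with 14.1, 13.7 and 13.5 TPM. There the range of Ankrd37 overlapped those of Arnt, Vhl and Hif1a. Ddit4 and Egln3 were the lowest in both groups, at 6.48 and 2.73 TPM in 3D culture.

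Other HIF targets were taken from a list of 52 genes, of which 36 passed the filter. Of these 36, 18 rose and 2 fell, or 55.6% called against the 38.0% among all genes, with a median log2 fold change of 0.41. The list was compiled with earlier results of these data known, so its counts are a description. Of the 13 genes tested that act in sugar metabolism, 9 rose and 1 fell (76.9% called), and of the 23 others, 9 rose and 1 fell (43.5% called). Over all genes tested, 18.5% were higher and 19.5% lower. The largest rises were those of Bhlhe40 (log2 fold change 1.86), a transcriptional repressor linked to the clock, Pfkfb3 (1.84), a driver of glycolysis, P4ha1 (1.71), a collagen prolyl hydroxylase, Aldoc (1.30), an aldolase, and Gbe1 (1.14), the glycogen branching enzyme. Gbe1 went from 5.01 and 6.35 TPM to 14.2 and 13.0 TPM (adjusted p = 0.0044, and 0.0580 without 3D replicate 1). Aldoc went from 1.77 and 1.78 TPM to 6.41 and 5.27 TPM (adjusted p = 0.0041). The genes that fell were Hilpda, which encodes a lipid droplet protein induced by hypoxia, from 45.2 and 39.4 TPM to 28.2 and 30.3 TPM (log2 fold change -0.52, adjusted p of 0.0102), and Pgm1, the gene of a phosphoglucomutase, with a log2 fold change of -0.27 (adjusted p = 0.0235). For Hilpda the adjusted p was 0.0907 without 3D replicate 1 and 0.0573 without 3D replicate 2. Pgm1 lost the call on TPM as deposited (adjusted p = 0.0595) and with any 1 of the 4 cultures left out, with adjusted p from 0.0526 to 0.168. Fewer of the 36 targets were called without either 3D culture, as were fewer of all genes. Without 3D replicate 1 the log2 fold changes were 1.79 for Bhlhe40, 1.85 for Pfkfb3, 1.55 for P4ha1, 1.17 for Aldoc and 1.08 for Gbe1. In the same fit they were -0.47 for Hilpda and -0.22 for Pgm1. Of the 3 target genes among the members 1 was called, and of these 36 targets 20, and whether these shares differ was not tested.

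**Figure D4:**
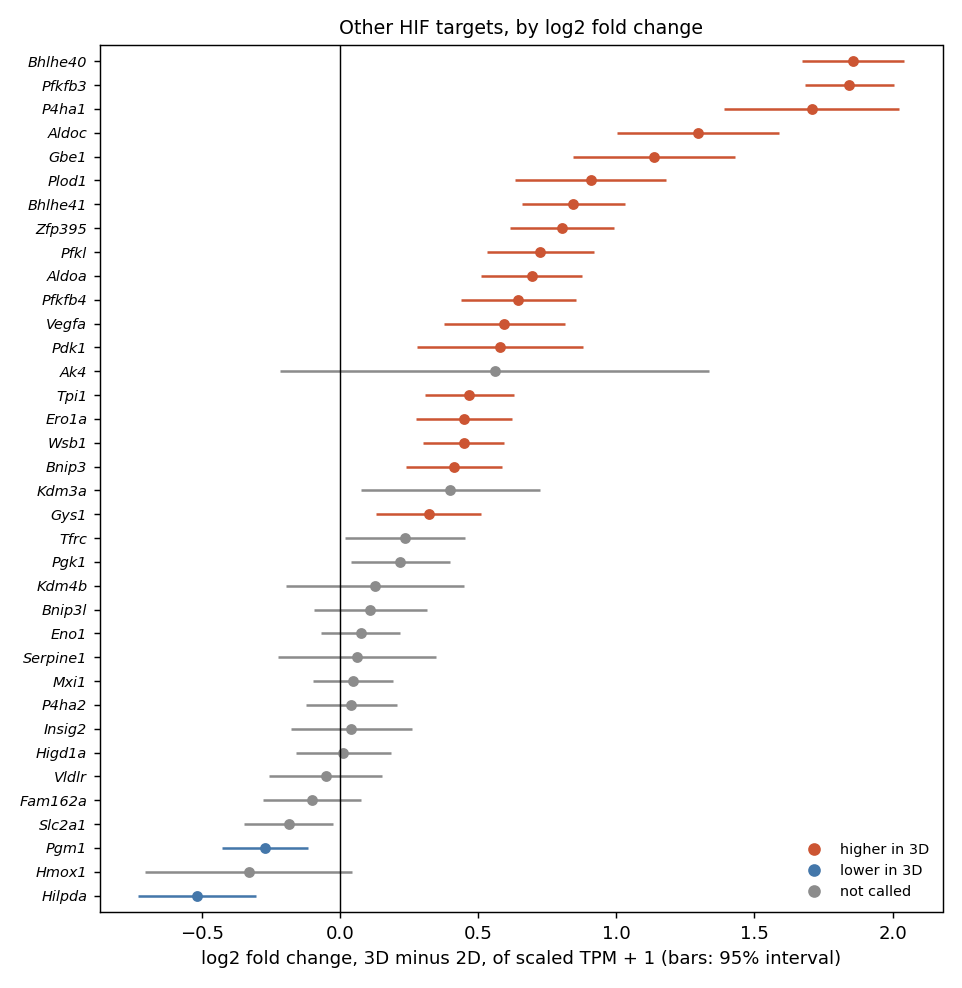
Log2 fold change between 3D and monolayer culture, on log2(scaled TPM + 1), of the 36 HIF targets outside the members that passed the filter, in order of size, with bars for the 95% interval of the limma fit. Orange marks the 18 genes called higher, blue the 2 called lower (Hilpda and Pgm1) and grey the 16 not called, and the values run from -0.52 to 1.86.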

How the data were processed

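Messenger RNA of 4 INS-1 cultures was measured, 2 in monolayer and 2 bioprinted, with groups and replicate numbers taken from the labels. The authors read stranded libraries as 75 bp single ends, with quality control in FastQC 0.11.8. They estimated the level of each transcript with Salmon 1.2. The paper names rn4 with the human insulin gene as the reference, and the build was not checked here. The values were deposited as TPM, which are corrected for transcript length and scaled to 1000000 per sample. They are written with decimal commas, and their range and sum were checked after reading them so. TPM carry no depth, so no counting interval or detection limit could be given, and the count test named in the methods could not be repeated.

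The TPM of all transcripts of a gene symbol were added up. Genes averaging at least 1 TPM were kept, and samples were scaled by trimmed means of M values, unweighted, with trims of 30% for M and 5% for A. The scaled TPM are printed throughout. The test was limma 3.58.1 (R 4.3.3, empirical Bayes with an intensity trend) on log2(TPM + 1), with Benjamini-Hochberg adjustment over all 11960 genes and a threshold of 0.05. The intervals given are 95% intervals of that fit. The steps were also run on simulated data. Far fewer genes changed there than were called here, so that run does not measure the error of these calls. The members, the gene lists and the tests were chosen with earlier results of these data known. Apart from the members, the genes named are those of the lists of subunits, turnover genes, coactivators and paralogues, and of the target lists among called genes without overlap up to 5 with the largest rise and up to 5 with the largest fall, and the targets below the filter. Symbols were matched to the files directly or through older symbols of the RefSeq GRCr8 gene table. Promoters came from RefSeq (GRCr8) and were matched by symbol. Alternatives were the scaling, filter, pseudocount, empirical Bayes options, threshold, replicate block and each culture left out.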

Additional observations from a re-analysis of the deposited data

How the results depend on the processing

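Whether cultures with the same replicate number were set up as pairs is not known. Their deviations from their groups had a correlation over genes of -0.0060. That single value cannot show how the cultures were set up. With the replicate block, 4814 genes, 3 members and 24 of the 36 other targets were called. Hif1an came below the threshold under the block (adjusted p = 0.0406) and Crebbp rose above it (0.0582). An adjusted p below 0.01 left 1418 genes and 2 of the 12 turnover and coactivator genes, a smaller threshold by construction. Without the expression filter 3 of those 12 were called, against 3739 of all 16749 genes, and the cause was not tested. Leaving out 1 culture at a time, the calls ran from 136 to 4515 over all genes, from 0 to 4 among the members, from 4 to 20 among the other targets and from 0 to 5 among the turnover and coactivator genes, with 1 residual degree of freedom and the lone culture of a group assumed to vary like the other group. Signs turned for genes near 0, and the cause was not tested. Hif1a was at -0.020 without the expression filter, and Cul2 at 0.021 on TPM as deposited and 0.0029 with genes kept from a mean of 5 TPM upward. With cultures left out, Hif1a ran from -0.081 to 0.11, Cul2 from -0.064 to 0.024 and Egln1 from -0.11 to 3.61e-05. The other members kept their direction in every setting in which they were tested. Egln3 was not tested with genes kept from a mean of 5 TPM upward. TPM carry no depth, so how far counting error limits the low genes, such as Egln3, is unknown.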

Other observations

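Of the 52 HIF targets outside the members, 15 lay below the expression filter. Those listed at 0 in all 4 cultures were Slc2a3, Slc16a3, Stc2, Ca12 (Car12), Epo and Angptl4. Ldha, whose transcript is known to be kept low in beta cells, had at most 0.0458 TPM, and Hk2, the gene of hexokinase 2, at most 0.0823 TPM. Adm, the gene of adrenomedullin, was listed at 0 in both monolayer cultures and at 0.522 and 0.601 TPM in the 3D cultures. Ca9 (Car9), the gene of a carbonic anhydrase often used as a marker of hypoxia, had 0.410 and 0.653 TPM in monolayer culture, against 0.568 and 0.481 TPM in 3D. Plod2, Lox, Rora, Cxcr4 and Edn1 were the others, each with at most 1.03 TPM. Gapdh was not analysed here.

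The core of the hypoxia response element was found in the promoter windows of 12 of 16 targets called higher and of 11 of 12 targets not called, counting those with a window matched by symbol. Among all windows the share was 41.6%. These genes were listed as HIF targets beforehand, the targets called lower were not counted, and the shares were not tested.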
